A study of Mus musculus with 5 samples.

Results

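The mitochondrial ribosomal protein genes are described here in inguinal fat of the mouse (iWAT, a white depot under the skin), as measured by RNA sequencing. They were chosen by name, as rows whose symbol begins with Mrpl or Mrps and a number, without pseudogene names holding -ps, at 1 or more in any library of the T3 table. The rule took 78 of 53700 genes, of which 49 carry large-subunit names (Mrpl) and 29 small-subunit names (Mrps). Subunits are given by name throughout, though Mrps30 and Mrps18a belong to the large subunit by structure. All 78 stood at 1 FPKM or more (fragments per kilobase of transcript, scaled to library size) in all 3 libraries of that table, so no member was lost to a filter on low values, and all 78 have a row in the HFD table. The T3 table holds floxed mice given PBS as vehicle, written Floxed (Veh), floxed mice given triiodothyronine, the active thyroid hormone, written Floxed (T3), and ATRβKO mice given the same hormone, written ATRβKO (T3). Injections were daily for 7 days on normal food, tissue was taken 24 hours after the last one, and each of these libraries pools the fat of 3 mice. The HFD table holds Floxed (HFD) and ATRβKO (HFD), from mice fed a high-fat diet for 2 to 3 months. Floxed mice carry the receptor gene between recombination sites and serve as the control genotype. The series title names the adipocyte receptor TRβ (gene Thrb) as the subject, and neither the driver of recombination nor the age or sex of the mice is given in the labels.

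Mitochondria keep their own ribosome, which translates the 13 mRNAs of the mitochondrial genome, all of them subunits of the respiratory chain and ATP synthase. Its proteins are encoded in the nucleus, made on cytosolic ribosomes and imported. The small subunit reads the mRNA, and the large subunit forms the peptide bond and hands the new chain to the inner membrane. Some of its proteins descend from bacterial ribosomal proteins and others have been added in mitochondria. Fat cells that make heat are rich in mitochondria, and thyroid hormone is one of the signals known to act on them.

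There was 1 library per group, so no spread between animals was measured, and no test or p-value was possible. Genes were called higher or lower by size alone, at 2-fold or 1.5-fold on the log2 ratio of FPKM plus 1, where at least 1 of the libraries compared reached 1 FPKM. Depth was estimated at 14.1, 15.3 and 15.4 M fragments for Floxed (Veh), Floxed (T3) and the library labelled ATRβKO (T3), and at 22.5 M for Floxed (HFD). At those depths the members stood for an estimated 35 to 2462 fragments each in the T3 table, with a median of 568. The counting error that follows, given below as SE, had a median of 0.085 on the log2 scale for Floxed (T3) over Floxed (Veh), and it covers counting only. Thrb stood at 4.44, 4.43 and 4.26 FPKM in Floxed (Veh), Floxed (T3) and the library labelled ATRβKO (T3), which does not check the genotype, so that library is named by its label throughout. All 10 adipocyte markers were at 1 FPKM or more in each library, and they moved with the groups, summing to 25838, 19493 and 23284 FPKM in the T3 table. In Floxed (T3) 9 of the 10 were lower than in Floxed (Veh), 4 of them (Cfd, Plin4, Adipoq and Lep) by 1.5-fold. Of all 15031 genes tested, 10920 were lower, and 14.0% were lower by 1.5-fold. The median log2 ratio was -0.12 over these markers and -0.21 over all genes.

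Markers of other cell types moved too. Skeletal muscle markers (10 genes) summed to 2348, 508 and 2329 FPKM in Floxed (Veh), Floxed (T3) and the library labelled ATRβKO (T3), T cell markers (6 genes) to 185, 79.9 and 147, B cell markers (5 genes) to 289, 174 and 252, and macrophage markers (6 genes) to 541, 396 and 705. All markers of these 4 lists were above 0 in these 3 libraries. Endothelial markers (5 genes) summed to 204, 260 and 197 FPKM, and the 6 thermogenic adipocyte markers, with Cox8b the highest in each, to 441, 1377 and 265. Ucp1, the uncoupling protein gene, held 24.3, 278 and 7.13 FPKM. Mammary epithelial markers (4 genes) summed to 1.52, 1.14 and 2.44 FPKM, with Krt14 listed at 0 in both floxed libraries. The part of these cell types in the values below was not tested, and in bulk tissue fewer cells of a type and less RNA per cell cannot be told apart.

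Taken per transcript length, the members were moderately expressed genes that kept nearly the same order in each library of the T3 table. Large-subunit genes had a median level of 34.5, 38.5 and 34.6 FPKM in Floxed (Veh), Floxed (T3) and the library labelled ATRβKO (T3), and small-subunit genes 34.5, 35.0 and 32.2 FPKM. Summed levels of the large-subunit genes were 2130, 2296 and 1986 FPKM, and those of the small-subunit genes 1125, 1282 and 1162 FPKM. For both subunits the sum was highest in Floxed (T3), while the lowest was the library labelled ATRβKO (T3) for the large subunit and Floxed (Veh) for the small. All members together made up 0.433%, 0.454% and 0.420% of the summed FPKM of these 3 libraries. The ratio of large to small summed level was 1.89, 1.79 and 1.71 in the same order, and 1.67, 1.70 and 1.59 without Mrpl52, so that the step from Floxed (Veh) to Floxed (T3) turned with that gene left out.

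At the top of the large subunit stood Mrpl52, Mrpl42, Mrpl33 and Mrpl30, by mean level over the T3 table. Mrpl33 held 128, 136 and 130 FPKM and Mrpl30 109.9, 134 and 119 FPKM in Floxed (Veh), Floxed (T3) and the library labelled ATRβKO (T3). At its foot were Mrpl1 with 7.19, 8.20 and 5.48 FPKM, Mrpl19 with 5.29, 4.45 and 4.18 FPKM, and Mrpl23 with 3.57, 3.84 and 5.62 FPKM. In the small subunit the highest were Mrps21, homologue of the bacterial protein bS21, with 147, 177 and 167 FPKM, followed by Mrps15, Mrps6 and Mrps34. The lowest with a small-subunit name were Mrps2, Mrps25 and Mrps30, which lay between 10.1 and 16.9 FPKM in these libraries. Neighbours in this order often lay closer than their counting error, as Mrpl42 and Mrpl33 did, with means of 132 and 131 FPKM. Rank correlations of the 78 levels, a description over genes that share transcript lengths and pipeline, were 0.968 for Floxed (Veh) with Floxed (T3) and 0.974 for Floxed (Veh) with the library labelled ATRβKO (T3).

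**Figure D1:**
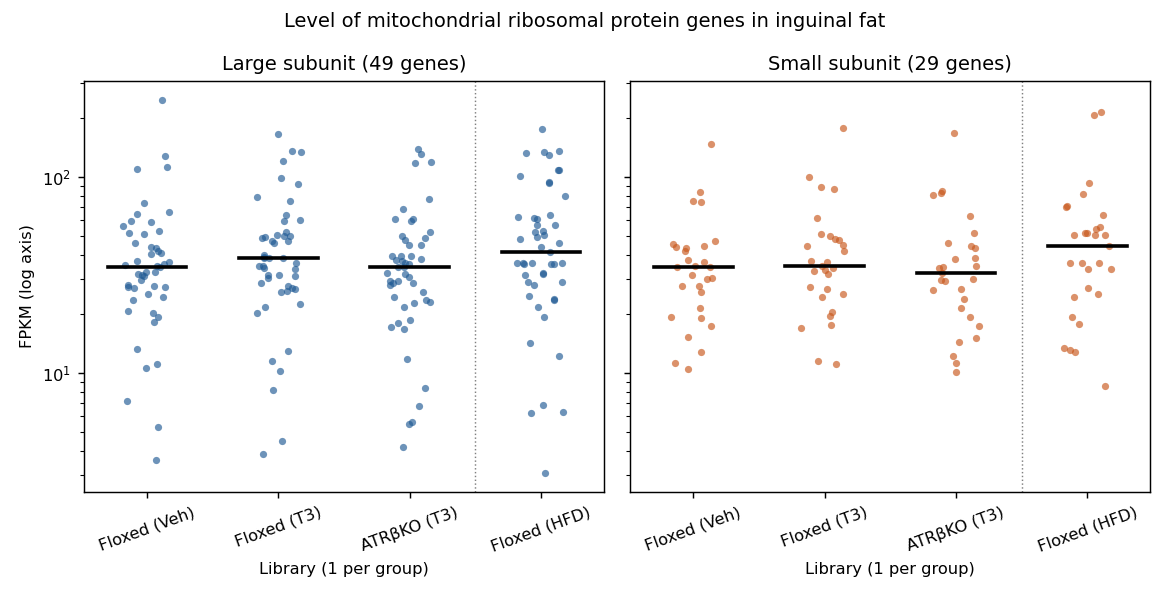
Level of each mitochondrial ribosomal protein gene in FPKM (log axis) in 4 libraries, with large-subunit genes on the left, small-subunit genes on the right, a point per gene and the median as a bar. The dotted line parts the T3 table from the separately deposited HFD table, and the medians lie between 32.2 and 44.1 FPKM throughout.

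The first comparison set Floxed (T3) against Floxed (Veh) and asked what the hormone did in the control genotype. Mitochondrial ribosomal protein genes were slightly higher with T3 in a library where most genes were lower. The median log2 ratio was 0.14 over the 49 large-subunit genes and 0.15 over the 29 small-subunit genes, against -0.21 over all 15031 genes tested. Above 0 were 38 of 49 large-subunit and 24 of 29 small-subunit genes, beside 27.2% of all genes. Set against the median of all genes instead of 0, 45 of 49 and 28 of 29 lay above it. Genes that reached 10 FPKM in either library had a median of -0.20, with 27.7% above 0, so the background was nearly the same among genes of higher level. Both medians stayed above 0 under all 4 rescalings, between 0.07 and 0.38.

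The shift was small for each gene. No member was 2-fold higher, beside 2.30% of all genes, and 1 was 2-fold lower, beside 3.98%. At 1.5-fold, Mrpl12 and Mrps22 were higher and Mrpl52 was lower, beside 5.23% and 14.0% of all genes. The spread among members, an SD of 0.26 over the large-subunit and 0.20 over the small-subunit genes, was smaller than the 0.55 over all genes tested and larger than the median counting SE.

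Mrpl12 (ENSMUSG00000039640), homologue of the bacterial stalk protein that recruits the elongation factors, had 59.2 FPKM in Floxed (Veh), 98.9 in Floxed (T3), 59.7 in the library labelled ATRβKO (T3) and 94.4 in Floxed (HFD). Floxed (T3) was the high library of the T3 table, 1.67-fold over Floxed (Veh), with a log2 ratio of 0.73 (SE 0.054). In GENCODE M21 its exons overlap a long noncoding RNA gene, Gm16755, on the other strand. Mrpl42, a large-subunit protein without a bacterial homologue, had 112, 166 and 117 FPKM in Floxed (Veh), Floxed (T3) and the library labelled ATRβKO (T3), for a log2 ratio of 0.56 (SE 0.057). Mrpl50 followed with 18.2, 26.1 and 18.7 FPKM and a log2 ratio of 0.50 (SE 0.079). In each of these 3 genes Floxed (T3) was the high library and the other libraries of the table lay close together.

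Mrpl52 (ENSMUSG00000010406), a mitochondria-specific protein near the central protuberance of the large subunit, went the other way. It had 248 FPKM in Floxed (Veh), 121 in Floxed (T3), 139 in the library labelled ATRβKO (T3) and 134 in Floxed (HFD). Floxed (Veh) was the library apart, and the fold for Floxed (T3) over it was 0.489, a log2 ratio of -1.03 (SE 0.064). That ratio missed 2-fold under 3 of the 4 rescalings, at -0.82, -0.79 and -0.91. Next lowest were Mrpl49 at -0.26 (SE 0.099) and Mrpl32, homologue of bacterial bL32, at -0.24 (SE 0.057), neither past 1.5-fold.

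Among small-subunit genes Mrps22 (ENSMUSG00000032459), a mitochondria-specific protein in which human mutations cause a respiratory chain disorder, had 17.3, 27.2 and 19.3 FPKM in the 3 libraries of the T3 table. Its log2 ratio for Floxed (T3) over Floxed (Veh) was 0.62 (SE 0.11), with Floxed (T3) again the high library. Mrps36 had 44.6, 61.7 and 45.8 FPKM and a log2 ratio of 0.46 (SE 0.093). Its protein is also known as a subunit of the oxoglutarate dehydrogenase complex and is not part of the mitoribosome structures. Mrps2, homologue of bacterial uS2, stood at 0.38 (SE 0.097). At the lower end were Mrps26 at -0.30 (SE 0.049), with 30.4, 24.4 and 26.6 FPKM, Mrps9, homologue of uS9, at -0.17 (SE 0.084) and Mrps33 at -0.13 (SE 0.11), the last 2 turning positive when the table was rescaled to a median of 0 or by trimmed means.

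**Figure D2:**
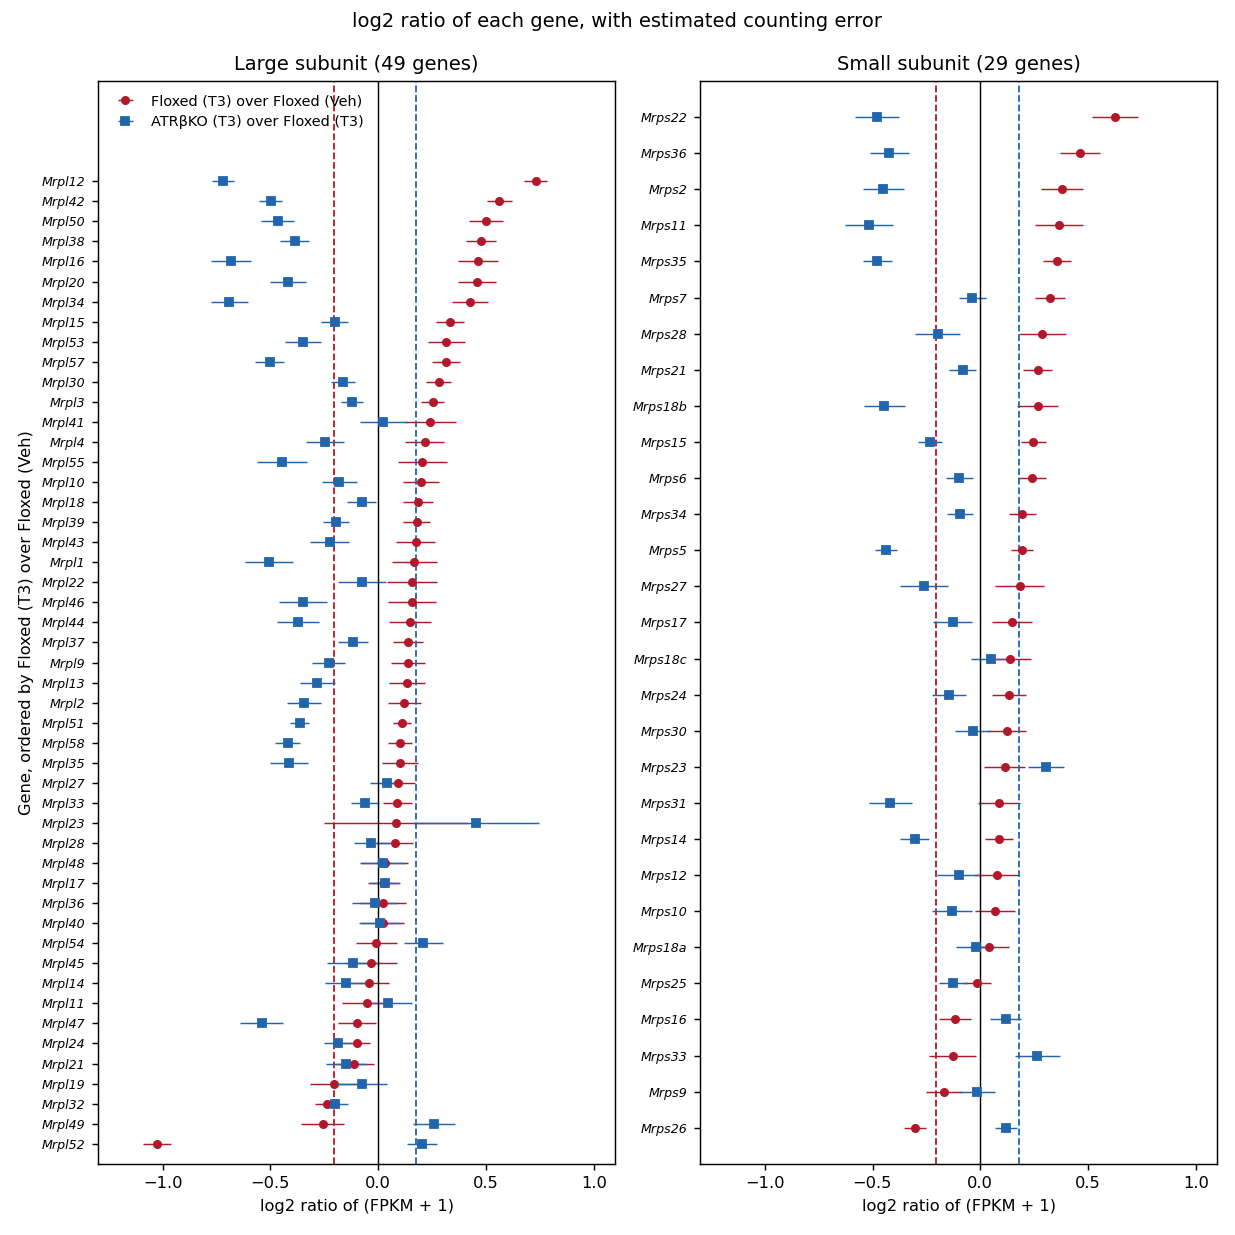
log2 ratio of FPKM plus 1 for each of the 49 large-subunit and 29 small-subunit genes, ordered by Floxed (T3) over Floxed (Veh) (circles), with the library labelled ATRβKO (T3) over Floxed (T3) as squares. Bars are the estimated counting SE, dashed lines the medians of all genes tested at -0.21 and 0.18, and both ratios share the Floxed (T3) library.

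Promoters are shown for the member of each subunit with the highest and the lowest ratio with T3, since these are the genes that differed most in the first comparison. They are RefSeq sequences on GRCm38.p6, 250 bases before to 50 after the gene start, read 5′ to 3′ on the gene's strand. Mrpl12 lies at chr11:120484387-120484686 (plus strand), Mrpl52 at chr14:54426659-54426958 (plus strand), Mrps22 at chr9:98601630-98601929 (minus strand) and Mrps26 at chr2:130563507-130563806 (plus strand). Capitals mark the GABP motif CCGGAAG and the thyroid receptor half-site AGGTCA, on either strand.
Mrpl12: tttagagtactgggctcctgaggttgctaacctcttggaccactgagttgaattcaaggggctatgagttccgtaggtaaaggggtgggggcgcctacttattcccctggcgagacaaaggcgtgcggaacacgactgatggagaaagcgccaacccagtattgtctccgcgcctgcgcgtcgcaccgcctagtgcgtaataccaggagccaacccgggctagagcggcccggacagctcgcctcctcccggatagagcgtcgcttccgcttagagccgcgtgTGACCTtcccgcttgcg
Mrpl52: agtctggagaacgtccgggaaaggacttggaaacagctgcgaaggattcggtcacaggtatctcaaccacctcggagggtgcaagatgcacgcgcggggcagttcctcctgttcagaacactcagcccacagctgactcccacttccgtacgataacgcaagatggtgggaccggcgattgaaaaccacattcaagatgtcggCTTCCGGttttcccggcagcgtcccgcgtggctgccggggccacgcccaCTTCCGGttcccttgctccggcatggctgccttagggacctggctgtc
Mrps22: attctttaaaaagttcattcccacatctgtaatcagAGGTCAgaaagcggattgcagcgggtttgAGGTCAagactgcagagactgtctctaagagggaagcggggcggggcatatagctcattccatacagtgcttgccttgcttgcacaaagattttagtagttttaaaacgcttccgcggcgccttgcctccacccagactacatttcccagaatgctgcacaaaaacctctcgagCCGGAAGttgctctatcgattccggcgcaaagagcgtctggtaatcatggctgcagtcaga
Mrps26: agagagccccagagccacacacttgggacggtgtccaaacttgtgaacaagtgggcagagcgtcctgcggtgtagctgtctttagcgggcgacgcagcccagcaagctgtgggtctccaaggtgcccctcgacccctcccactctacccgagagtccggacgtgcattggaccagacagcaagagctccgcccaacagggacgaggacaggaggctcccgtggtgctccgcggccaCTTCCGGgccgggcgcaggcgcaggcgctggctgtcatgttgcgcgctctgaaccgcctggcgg
Mrpl12 and Mrps22, the highest, hold the half-site, while the next highest genes, Mrpl42, Mrpl50, Mrps36 and Mrps2, do not. Mrps22, Mrpl52 and Mrps26 hold the GABP motif. Of the genes next lowest after Mrpl52 and Mrps26, Mrps33 holds it, while Mrpl49, Mrpl32 and Mrps9 do not.

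Promoters were found for 69 of the 78 members, all except Mrpl4, Mrpl13, Mrpl15, Mrpl19, Mrpl38, Mrpl54, Mrps28, Mrps34 and Mrps35. Motifs of 3 factors known for nuclear genes of mitochondria were in a larger share of the members' promoters than of all promoters, and the half-site of the thyroid hormone receptor was not. CCGGAAG, bound by GABP (also called NRF2), was in 26 of 69 promoters (37.7%), beside 9.93% of all 27025. ATGGCGGC, bound by YY1, was in 12 (17.4%), beside 2.61%, and CGCATGCG, bound by NRF1, in 7 (10.1%), beside 2.07%. At least 1 of these 3 was in 36 promoters (52.2%), beside 13.5% of all, and the members' promoters were richer in G and C, with a median of 58.7% against 52.7%. The half-site AGGTCA was in 11 (15.9%), beside 18.1% of all. TCAAGGTCA, bound by the estrogen-related receptors and holding AGGTCA within it, was in none, beside 0.466%, and AGGTCA repeated with 4 bases between was in none, beside 0.0148%. Both strands were searched, and no 2 of the other motifs share letters that would make them overlap by construction. A match is a description of these letters and not a site.

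By motif, medians of the ratio with T3 lay close together for 3 motifs and further apart for the half-site. The median log2 ratio of Floxed (T3) over Floxed (Veh) was 0.11 for members with CCGGAAG and 0.14 for those without, 0.16 and 0.13 for CGCATGCG, and 0.15 and 0.12 for ATGGCGGC. Members with AGGTCA had a median of 0.25, against 0.12 for those without. The half-site did not stand apart in this way for the library labelled ATRβKO (T3) over Floxed (T3). Medians there with and without the motif were -0.23 and -0.15 for AGGTCA and -0.08 and -0.19 for CCGGAAG. They were -0.25 and -0.15 for ATGGCGGC and -0.19 and -0.15 for CGCATGCG. The 11 members with AGGTCA are Mrpl12, Mrpl22, Mrpl36, Mrpl43, Mrpl47, Mrpl53, Mrpl57, Mrps15, Mrps21, Mrps22 and Mrps30. Of these Mrpl47 had a ratio below 0 with T3, and no test was made of any of these differences.

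By place in the ribosome, ratios for Floxed (T3) over Floxed (Veh) were taken over small groups of genes. Above 0 were 79.5% of all members and 27.2% of all genes. Of the stalk, Mrpl12 was at 0.73, Mrpl10, its base on the ribosome, at 0.20 (SE 0.083) and Mrpl11 at -0.05 (SE 0.12). All 4 proteins near the peptidyl transferase centre (Mrpl2, Mrpl3, Mrpl4 and Mrpl27) were above 0, with a median of 0.17. Of these Mrpl27 lay near its counting error (0.09, SE 0.081). The central protuberance held 6 genes with a median of 0.09 and 5 above 0. Mrpl38 was highest of them at 0.48 (34.9, 49.0 and 37.2 FPKM) and Mrpl52 lowest. At the exit of the new chain, Mrpl22, Mrpl23, Mrpl24 and Mrpl45 had a median of 0.02. Rescaled to a median of 0, by trimmed means, to a common total and without the 50 most abundant genes, the medians were 0.37, 0.40, 0.10 and 0.29 for the peptidyl transferase region and 0.30, 0.32, 0.03 and 0.21 for the central protuberance. The exit median moved most, to 0.23, 0.23, -0.03 and 0.13, and so turned at a common total. Of the exit proteins Mrpl45, which anchors the ribosome to the inner membrane, held 13.2, 12.9 and 11.8 FPKM, a difference within its counting error (-0.03, SE 0.12). Mrpl58, a peptidyl-tRNA hydrolase that frees stalled ribosomes, held 35.8, 38.5 and 28.5 FPKM, and Mrps12, which sits at the decoding centre, 35.1, 37.0 and 34.5 FPKM.

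Members counted as having a bacterial homologue, those that carry its number and Mrps18c of the 3 Mrps18 genes, had ratios close to the others. The split goes by number, so a homologue that carries another number falls among the others. In the large subunit the median log2 ratio was 0.13 over 28 proteins so counted and 0.15 over the other 21. In the small subunit it was 0.17 over 14 and 0.13 over 15. Levels in Floxed (Veh) had medians of 38.7 and 28.2 FPKM for large-subunit genes so counted and the others, and of 34.8 and 30.4 FPKM for small-subunit genes.

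The second comparison set the library labelled ATRβKO (T3) against Floxed (T3), both given the hormone. Here the members were lower while most genes were higher. The median log2 ratio was -0.19 over large-subunit and -0.13 over small-subunit genes, against 0.18 over all 14988 genes tested. Above 0 were 10 of 49 and 5 of 29 members, beside 70.3% of all genes. Only 4 of 49 and 2 of 29 lay above the median of all genes. Both medians stayed below 0 under all 4 rescalings, between -0.06 and -0.40. This comparison and the first share the Floxed (T3) library, so their ratios are not independent of each other.

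No member was 2-fold higher or lower, beside 4.04% and 2.02% of all genes, and none was 1.5-fold higher, beside 13.4%. Lower by 1.5-fold were 3 large-subunit genes, beside 5.06% of all genes. These were Mrpl12 (98.9 against 59.7 FPKM, log2 ratio -0.72, SE 0.053), Mrpl34 and Mrpl16. Mrpl34, homologue of bacterial bL34, had 58.5, 79.0 and 48.6 FPKM in Floxed (Veh), Floxed (T3) and the library labelled ATRβKO (T3), and a log2 ratio of -0.69 (SE 0.086). Mrpl16, homologue of uL16, had 25.2, 35.1 and 21.5 FPKM and a log2 ratio of -0.68 (SE 0.093). For both, Floxed (T3) was high and the library labelled ATRβKO (T3) low.

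In the small subunit no gene reached 1.5-fold on the values as deposited or at a common total. Rescaled to a median of 0, by trimmed means and without the 50 most abundant genes, 8, 8 and 3 small-subunit genes were 1.5-fold lower, and 12, 13 and 8 large-subunit genes, beside 8.36%, 8.27% and 6.94% of all genes. Mrps11, homologue of uS11, was lowest at -0.52 (SE 0.11), with 19.3, 25.2 and 17.3 FPKM in the 3 libraries. Mrps22 stood at -0.48 (SE 0.10) and Mrps35 at -0.48 (SE 0.066). At the upper end were Mrps23 at 0.30 (SE 0.085), with 46.9, 50.8 and 63.0 FPKM, Mrps33 at 0.26 (SE 0.10) and Mrps26 at 0.12 (SE 0.050), which turned negative under 3 of the 4 rescalings. In the large subunit Mrpl23 was highest at 0.45, with an SE of 0.29 that reflects its few fragments, followed by Mrpl49 at 0.26 (SE 0.097) and Mrpl54 at 0.21 (SE 0.089). Mrpl23, homologue of the exit-tunnel protein uL23, is uncertain, since Mrpl23-ps1, listed as its pseudogene, held 69.4, 56.7 and 62.9 FPKM and near-identical copies can split reads.

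The third comparison set the library labelled ATRβKO (T3) against Floxed (Veh). The members centred on no difference, as did the genes at large. Medians were -0.02 over large-subunit and 0.0026 over small-subunit genes, against -0.03 over all 15175 genes tested, and the small-subunit median turned negative without the 50 most abundant genes in the total while the large-subunit one turned positive under 2 rescalings. Above 0 were 23 of 49 and 15 of 29 members, beside 45.1% of all genes. None was 2-fold higher or lower, beside 1.83% and 1.79%, and none was 1.5-fold higher, beside 4.35%.

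Mrpl52 and Mrpl47 were 1.5-fold lower, beside 4.32% of all genes. Mrpl52 stood at -0.82 (SE 0.061), with Floxed (Veh) the high library as before. Mrpl47 had 11.0, 10.2 and 6.72 FPKM in Floxed (Veh), Floxed (T3) and the library labelled ATRβKO (T3), and a log2 ratio of -0.64 (SE 0.10). Its exons overlap those of Ndufb5 and Actl6a on the other strand in GENCODE M21, and strand use in counting is not given in the sources used here. Mrpl32 was next at -0.43 (SE 0.059). At the upper end were Mrpl23 at 0.53 (SE 0.31), Mrps23 at 0.42 (SE 0.089), Mrps7, homologue of uS7, at 0.29 (SE 0.069) and Mrpl41 at 0.27 (SE 0.12). The lowest small-subunit genes were Mrps31 at -0.33 (SE 0.11), Mrps5 at -0.24 (SE 0.055) and Mrps14 at -0.22 (SE 0.068).

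Other genes of mitochondrial translation were described from lists by function. The background for each list is the share of all genes above 0. It was 27.2% for Floxed (T3) over Floxed (Veh), with a median of -0.21. For the library labelled ATRβKO (T3) over Floxed (T3) it was 70.3%, with a median of 0.18. For Floxed (T3) over Floxed (Veh), 16 translation factors and mRNA-binding proteins had a median log2 ratio of 0.13 with 13 above 0. For the library labelled ATRβKO (T3) over Floxed (T3) their median was -0.29 with 1 above 0. The elongation factor gene Gfm1, which moves the ribosome along the mRNA, had 28.7, 52.5 and 32.0 FPKM in the 3 libraries, the widest difference of that list, with log2 ratios of 0.85 and -0.70. Tufm, the factor that brings in aminoacyl-tRNA, had 56.4, 69.5 and 55.4 FPKM, and Lrpprc, which stabilises mitochondrial mRNAs, 15.9, 18.7 and 13.5 FPKM. Mtif3, an initiation factor, went from 19.4 to 14.6 and 13.5 FPKM. In all but the last of these 4 the Floxed (T3) library was the highest.

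Aminoacyl-tRNA synthetases and related enzymes (20 genes) had medians of 0.04 and -0.16, with 11 and 4 above 0, and the first turned negative at a common total. Yars2 was the highest of them with T3, at 7.63, 13.3 and 11.1 FPKM. Assembly and rRNA-modifying factors (25 genes) had medians of -0.04 and -0.01, with 12 and 11 above 0, beside 27.2% and 70.3% of all genes. The first median turned positive under 3 rescalings and the second under 1. Mettl17, an assembly factor of the small subunit, was 2-fold higher in the second of these comparisons, with 17.1, 14.2 and 32.1 FPKM in the 3 libraries. The 5 mitoribosome subunits without an Mrp name had medians of 0.11 and -0.02, the second turning positive at a common total, and among them Dap3, a small-subunit protein, held 44.6, 36.7 and 44.4 FPKM. Genes of mitochondrial DNA transcription and copying (11) had medians of -0.11 and -0.08, the first turning positive under 3 rescalings, and Tfam, which packs that DNA, held 28.6, 26.3 and 27.1 FPKM.

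The RNAs that the mitoribosome reads had wider medians than its protein genes in these 2 comparisons. The 13 mitochondrially encoded mRNAs had a median log2 ratio of 0.41 for Floxed (T3) over Floxed (Veh), with 11 above 0, and of -0.71 for the library labelled ATRβKO (T3) over Floxed (T3), with 1 above 0. Their summed level was 106221, 150187 and 91893 FPKM in the 3 libraries. Much of that sum was 1 gene, since mt-Atp8 alone held 49766, 73315 and 44795 FPKM, while mt-Atp6 held 782, 958 and 436 FPKM. mt-Nd1, a complex I subunit, went from 6272 to 9479 and 5598 FPKM, and mt-Co1, a complex IV subunit, from 19327 to 26982 and 15706 FPKM. mt-Co3 was the one above 0 in the second comparison, at 128, 302 and 420 FPKM, far below mt-Co1. How reads were assigned among the mitochondrial genes was not tested. The mitochondrial rRNAs mt-Rnr1 and mt-Rnr2 held 444, 616 and 541 FPKM and 275, 330 and 295 FPKM. Their log2 ratios were 0.47 and 0.26 in the first comparison and -0.19 and -0.16 in the second, where they lay near the medians of the mitoribosome's protein genes.

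A further pair of lists was added after their values were seen. The 72 cytosolic ribosomal protein genes taken by a name of Rpl or Rps and a number had medians of -0.47 and 0.38, with none and then all 72 above 0. They summed to 57940, 41966 and 55322 FPKM, and the name rule left out others, such as Fau. The 83 nuclear genes of the respiratory chain and ATP synthase at 1 FPKM or more had medians of 0.51 and -0.51, with 75 and 7 above 0. The signs of these 4 medians held under all 4 rescalings, while in the second comparison 71 and 68 cytosolic genes were above 0 when rescaled to a median of 0 and by trimmed means. For Floxed (T3) over Floxed (Veh) the mitochondrial ribosomal protein medians of 0.14 and 0.15 thus lay between the median of the respiratory chain genes and that of all genes, and cytosolic ribosomal protein genes lay below both.

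**Figure D3:**
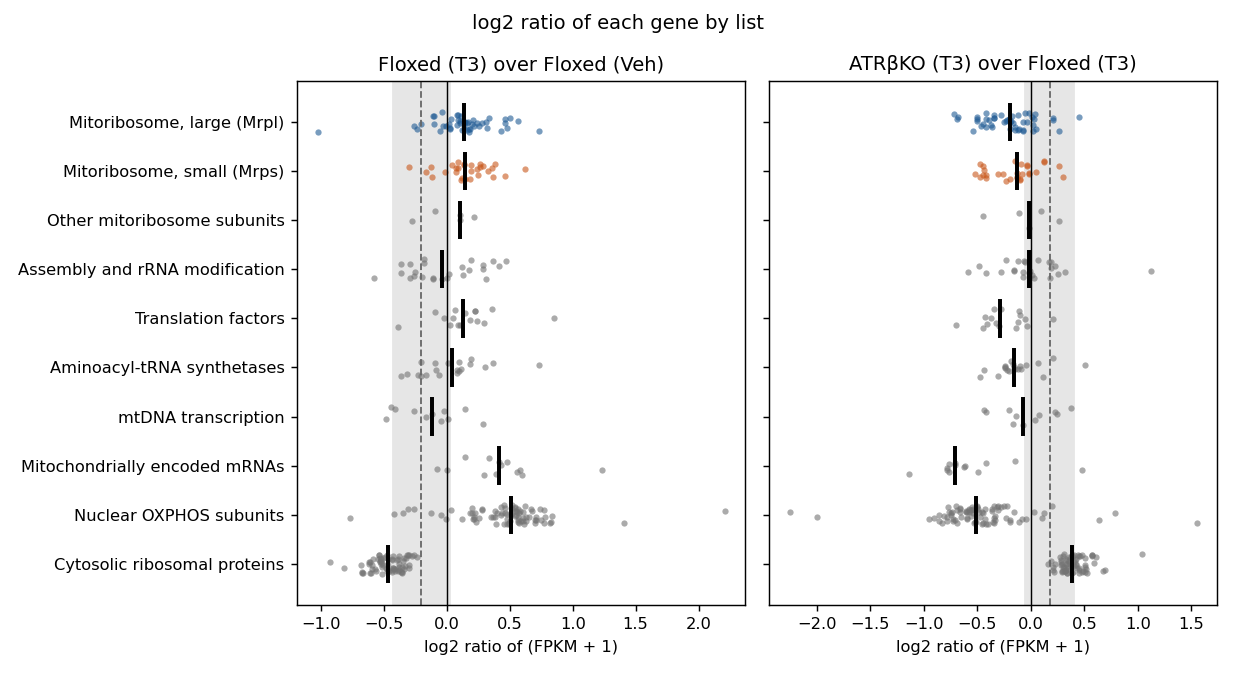
log2 ratio of FPKM plus 1 for the 2 mitoribosome subunits and 8 other lists, a point per gene tested and a bar at each list's median. The grey band spans the interquartile range of all genes tested and the dashed line is their median, with Floxed (T3) over Floxed (Veh) on the left and the library labelled ATRβKO (T3) over Floxed (T3) on the right.

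Many members lie close to other genes, which may bear on their values, though how reads were shared between neighbours was not tested. In GENCODE M21 (GRCm38), 25 members start within 500 bases of a protein-coding gene that runs the other way, and 33 share exon sequence with another gene, 8 of them on the same strand. Mrps11 and Mrpl46 face each other, with log2 ratios for Floxed (T3) over Floxed (Veh) of 0.36 and 0.16. Mrps12 faces Sars2, the mitochondrial seryl-tRNA synthetase gene, and Mrpl36 faces Ndufs6, a complex I gene that held 98.8, 127 and 102 FPKM while Mrpl36 held 34.5, 35.0 and 34.6 FPKM. Mrpl49 faces Fau, a cytosolic ribosomal protein gene, with 24.2, 20.1 and 24.3 FPKM for Mrpl49 and 908, 600.1 and 801 FPKM for Fau. Of the 20 partners outside the family at 1 FPKM or more, 10 were above 0 for Floxed (T3) over Floxed (Veh), with a median of -0.01. Of their members 16 were above 0, with a median of 0.14. Over all genes 27.2% were above 0 with a median of -0.21, so partners and members both lay above the background.

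On the high-fat diet the floxed library could be set beside the others only as a description, since the tables may have been normalized separately. In Floxed (HFD) the members had medians of 41.4 FPKM (large) and 44.1 FPKM (small), summed to 2635 and 1545 FPKM, and made up 0.552% of the library. Muscle markers summed to 10288 FPKM in that library, T cell markers to 7.58 and B cell markers to 1.78, with no B cell marker at 1 FPKM or more, and their part in these levels was not tested. Member order was close to that of the T3 table, with rank correlations of 0.916 with Floxed (Veh), 0.906 with Floxed (T3) and 0.928 with the library labelled ATRβKO (T3), over 78 genes.

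Mrps6, homologue of bS6, was the highest member in Floxed (HFD), at 213 FPKM beside 74.5, 88.2 and 82.4 in the T3 table. Its exons overlap those of Slc5a3, an inositol transporter gene, on the same strand in GENCODE M21. Mrpl52, at rank 1 in Floxed (Veh), was at rank 5 there. Mrps28 moved from rank 51 in Floxed (Veh) to rank 26, with 27.8 and 54.1 FPKM, and Mrps33 from 38 to 17, with 34.8 and 69.8 FPKM. Mrpl3, homologue of uL3 near the peptidyl transferase centre, moved from rank 28 to 56, with 40.7 and 29.2 FPKM, and Mrpl21 from 31 to 50. Among large-subunit names Mrpl19 was lowest, at 3.06 FPKM, and among small-subunit names Mrps30, at 8.59 FPKM.

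**Figure D4:**
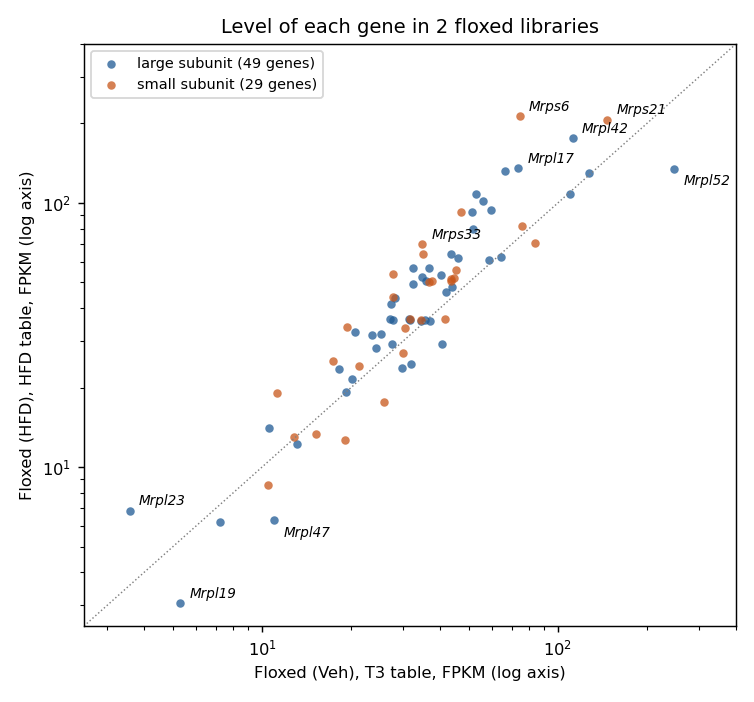
Level of each of the 78 genes in FPKM in Floxed (Veh) and Floxed (HFD), both axes logarithmic, with large-subunit genes in blue and small-subunit genes in orange. The dotted line marks equal values in the separate tables, and Mrps6 lies furthest above it and Mrpl52 furthest to the right.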

How the data were processed

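RNA from iWAT was sequenced in 5 libraries, 1 per group, with paired Illumina reads, per the labels' protocols. HISAT2, StringTie and build GRCm39 are listed with no version or role, per the submitters' processing notes. Values in the deposited tables were read as FPKM, a unit that no header or label names and that was inferred from the non-integer values, their differing sums and the listing of StringTie. FPKM is scaled to transcript length and library total, so abundant genes lower the values of all others.

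Ratios were made within the T3 table only, as log2 of FPKM plus a pseudocount of 1, for genes that reached 1 FPKM in either library. Folds are plain ratios of FPKM. Depth was estimated from the smallest steps between values of single-exon genes of 300 to 3000 bases in GENCODE M21 (GRCm38), and counting SEs used transcript lengths from that annotation, of another build than the files. Promoters are RefSeq sequences (GRCm38.p6). Scripts ran in Python 3.11.15 with pandas 2.3.3 and numpy 2.4.6. The 2-fold rule was tried on simulated data with changes larger than 2-fold. The 1.5-fold rule and shifts as small as the member medians were not simulated.

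Members and lists were chosen with earlier results of these data known. Genes were named where they passed 2-fold, were among the 3 highest or lowest ratios of a subunit, were among the 4 highest or 3 lowest by level, or had a listed role; other genes named were chosen after their values were seen. Listed but not found by name were Gars1 and Kars1 among the synthetases and Mtrfr among the translation factors. Alternatives were pseudocounts of 0.1 and 5, no floor or a floor of 10 FPKM, 4 rescalings (median of 0, trimmed mean of M values or TMM, common total, total without the 50 most abundant genes), subunits by structure, and, added after seeing the data, leaving out members that share exons and, for the ratio of subunits, Mrpl52.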

Additional observations from a re-analysis of the deposited data

Results flagged for a closer look

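The library labelled ATRβKO (HFD), which no comparison above uses, gave the members a summed level of 7792 FPKM, in a library whose summed FPKM was 1891065, against 757606 for Floxed (HFD). The sum rested on few genes, with Mrps21 at 1331 and Mrpl52 at 1236 FPKM, while the median member had 22.6 FPKM, below the medians of 33.2 to 42.6 FPKM elsewhere, and 20 members were below 10 FPKM, against 3 to 5 elsewhere. Its rank correlations of member levels with the other libraries were 0.391 to 0.485, and its members' share of the library was 0.412%, the lowest of the 5 libraries. Depth there was estimated from 119 genes, and the order of its members was not used.

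Mrpl23-ps1, left out by name, had 69.36 FPKM in Floxed (Veh), where Mrpl23 had 3.57 FPKM. The pseudogene held 56.7, 62.9 and 74.2 FPKM in Floxed (T3), the library labelled ATRβKO (T3) and Floxed (HFD). The other 5 pseudogene rows were listed at 0 in these 4 libraries, except Mrpl27-ps at 0.25 FPKM in Floxed (HFD). How reads were split between the copies was not tested.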

How the results depend on the processing

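No paired analysis was possible because each group has 1 library, which leaves no pairs to block on. The signs of both subunit medians in the first 2 comparisons held under every alternative run, and sizes depended on the scaling. For Floxed (T3) over Floxed (Veh), values are given rescaled to a median of 0, by TMM and by a total without the 50 most abundant genes, in that order; the first by construction sets all genes evenly about 0. The large-subunit median was 0.34, 0.37 and 0.26, the small-subunit median 0.35, 0.38 and 0.27, and the share of members above 0 was 93.6%, 93.6% and 89.7%, where all genes gave 50.6% and 38.3% under the last 2. Members 1.5-fold higher numbered 10, 12 and 5, beside 8.86%, 9.03% and 6.94% of all genes, and 0, 0 and 0 were 2-fold lower, beside 2.36%, 2.78% and 3.28%. Medians were 0.31, 0.33 and 0.22 for mitoribosome subunits without an Mrp name, 0.17, 0.17 and 0.067 for assembly factors, 0.33, 0.34 and 0.24 for translation factors, 0.25, 0.24 and 0.15 for synthetases, and 0.62, 0.65 and 0.54 for mitochondrially encoded mRNAs. The median for mitochondrial DNA transcription reversed, at 0.091, 0.11 and 0.0030. Mrps33 reversed at 0.078 and 0.10 and Mrps9 at 0.037 and 0.060 under the first 2 rescalings, and the median of all genes was 0.0047 by TMM. Members 1.5-fold higher numbered 1 with a pseudocount of 5, at a common total, and without the members that share exons. Of all genes 4.39% were 1.5-fold higher at a common total and 5.23% on the main values, and no share was taken for that pseudocount.

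For the library labelled ATRβKO (T3) over Floxed (T3), in the same order, the large-subunit median was -0.37, -0.40 and -0.32, the small-subunit median -0.31, -0.33 and -0.26, and the share of members above 0 was 7.69%, 6.41% and 7.69%, where all genes gave 48.9% and 57.0% under the last 2. Members 1.5-fold lower numbered 20, 21 and 11, beside 8.36%, 8.27% and 6.94%. Medians were -0.20, -0.23 and -0.15 for mitoribosome subunits without an Mrp name, -0.19, -0.18 and -0.12 for assembly factors, -0.47, -0.48 and -0.41 for translation factors, -0.34, -0.35 and -0.28 for synthetases, -0.26, -0.25 and -0.19 for mitochondrial DNA transcription, and -0.88, -0.91 and -0.84 for mitochondrially encoded mRNAs. Mrps26 reversed at -0.058, -0.081 and -0.0094, and the median of all genes was -0.0082 by TMM. With a floor of 10 FPKM, which leaves fewer genes, the medians of assembly factors and mitochondrial DNA transcription were 0.12 and 0.043.

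For the library labelled ATRβKO (T3) over Floxed (Veh), 1 member was 1.5-fold higher with a pseudocount of 0.1, and 1 was 1.5-fold lower with a pseudocount of 5 or without the members that share exons. Of all genes 4.35% were 1.5-fold higher and 4.32% lower on the main values, and no share was taken for these pseudocounts. Without the 50 most abundant genes in the total, the members' share was 0.684%, 0.818%, 0.656% and 0.830% of Floxed (Veh), Floxed (T3), the library labelled ATRβKO (T3) and Floxed (HFD). Of the values for single genes, 210 stayed within 0.1 of the main log2 ratio and 69 moved by more with the same sign, all but 4 of these under the 3 rescalings above. Of those for comparisons, lists and levels, 271 stayed near the main value, 73 moved further, and 3 reversed from a median of at least 0.1 in size. Which scaling is right was not tested. Differences near the counting SE of a gene, such as those of Mrpl23 and Mrpl45, were not detectable at this depth.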
